A study of Mus musculus with 9 samples.

Results

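The MHC class I antigen presentation pathway was followed here through 10 genes: the heavy chain genes H2-K1 and H2-D1, the light chain gene B2m, the peptide transporter genes Tap1 and Tap2, the loading factor gene Tapbp, the immunoproteasome subunit genes Psmb8, Psmb9 and Psmb10, and the transactivator gene Nlrc5. They were chosen by name, with earlier results of these data known, and all 10 were found among the 52306 named genes of the table. The samples were 9 libraries of 4T1 cells, an established mouse mammary carcinoma line grown in culture. Of these, 3 came from cells treated with MK1775, an inhibitor of the cell cycle kinase Wee1, 3 from cells labelled as treated with Wee1 siRNA, and 3 from negative control cells (NC), all taken on day 2. All groups were kept in the same serum-containing medium. The sources used here do not give the MK1775 dose, the siRNA sequence or the nature of the negative control. The study set each treatment against NC, and both comparisons share the same 3 NC libraries. Whether the replicates of a group were separate cultures is not stated in the labels. Nor do they say whether the 3 numbered Wee1 siRNA libraries repeat 1 siRNA or hold different siRNAs, so the mean and SD of that group may span different siRNAs. The p-values therefore measure only how far these libraries spread, which may be technical.

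Class I molecules carry short peptides from inside the cell to its surface, where cytotoxic T cells read them. A proteasome cuts cellular proteins, the TAP transporter pumps the peptides into the endoplasmic reticulum, and tapasin (encoded by Tapbp) helps to load them onto a heavy chain paired with beta-2-microglobulin (encoded by B2m). In cells exposed to interferon, inducible subunits take the place of the constitutive catalytic subunits of the proteasome, and the transactivator Nlrc5 acts with a factor complex bound at class I promoters. The 4T1 line derives from BALB/c mice, which carry the d haplotype of the mouse MHC, while the reference genome is that of C57BL/6J, which carries the b haplotype.

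The promoter sequences of 4 of the genes are shown because heavy chain, light chain and transporter genes are known to share interferon and NF-kB elements there. Each is the 250 bases before the annotated start in RefSeq (build GRCm38.p6, the C57BL/6J reference and not 4T1 sequence), written on the strand of the gene at chr17:34000348-34000597 (minus strand) for H2-K1, chr17:35262844-35263093 (plus) for H2-D1, chr2:122147437-122147686 (plus) for B2m and chr17:34187306-34187555 (plus) for Tap1. Capitals mark exact matches, on either strand, to 1 of 5 motifs, which were chosen with the sequences in view: GAAANNGAAA (core of the interferon-stimulated response element), GAANNGAAA (the same with 1 base fewer), TTCNNNGAA (gamma-activated site), GGGGATTCCCC (enhancer A, a site of NF-kB, with the letters it has before H2-K1, so that the match there is by construction) and CCAAT. A match on the other strand appears as its reverse complement, and no 2 matches in these windows overlap.
H2-K1: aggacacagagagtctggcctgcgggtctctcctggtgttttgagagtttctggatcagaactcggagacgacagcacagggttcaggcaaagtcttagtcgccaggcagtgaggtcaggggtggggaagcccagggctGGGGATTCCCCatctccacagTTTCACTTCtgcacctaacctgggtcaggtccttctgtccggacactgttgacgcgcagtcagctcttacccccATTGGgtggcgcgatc
H2-D1: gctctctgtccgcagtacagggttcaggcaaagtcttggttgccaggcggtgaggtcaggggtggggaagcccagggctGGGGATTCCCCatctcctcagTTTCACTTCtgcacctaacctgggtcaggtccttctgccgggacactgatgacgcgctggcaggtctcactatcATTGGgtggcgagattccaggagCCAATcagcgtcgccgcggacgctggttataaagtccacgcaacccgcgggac
B2m: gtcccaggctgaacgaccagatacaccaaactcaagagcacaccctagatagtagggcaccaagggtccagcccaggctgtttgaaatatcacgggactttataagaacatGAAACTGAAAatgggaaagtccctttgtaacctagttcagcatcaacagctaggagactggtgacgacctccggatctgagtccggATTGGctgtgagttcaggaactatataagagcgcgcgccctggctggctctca
Tap1: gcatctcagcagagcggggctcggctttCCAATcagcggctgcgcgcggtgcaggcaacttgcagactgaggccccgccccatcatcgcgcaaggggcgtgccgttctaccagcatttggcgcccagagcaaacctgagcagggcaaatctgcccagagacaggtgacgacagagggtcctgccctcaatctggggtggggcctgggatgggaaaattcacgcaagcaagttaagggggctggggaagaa

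The 11 letters of enhancer A stood 111 bases before the start of H2-K1 and 171 bases before that of H2-D1, in both followed within the next bases by GAANNGAAA on the other strand, at 90 and 150 bases. Of 27025 promoter windows of this length, 6 (0.0222%) held the enhancer A letters, those of H2-K1, H2-D1, H2-Q6, Aipl1, Atg16l2 and Pdzd2, and 6.34% held GAANNGAAA. The B2m window held GAAANNGAAA at 139 bases before the start, as did 3.04% of all windows, and CCAAT on the other strand at 53 bases. The Tap1 window held only CCAAT, at 222 bases, a motif present in 34.5% of windows. Of the other 4 windows, that of Psmb8 held TTCNNNGAA at 97 bases (7.18% of all windows), those of Psmb9 and Tapbp held only CCAAT, and that of Psmb10 held none of the 5. Tap2 and Nlrc5 had no entry in the promoter table. Tap1 and Psmb9 lie head to head: their starts are 226 bases apart in RefSeq, and in the deposited table (build GRCm39) the longest Tap1 and Psmb9 transcripts overlap by 212 bases on opposite strands. Because strand-aware counting is not stated, reads in that overlap cannot be told apart. Only the exact enhancer A letters were searched for NF-kB, so sites with other letters, in the B2m window or elsewhere, are not marked. A window without a mark may therefore still hold such a site. A match is a description of letters only, and binding at these sites was not measured.

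Expression was deposited as FPKM, a fragment count divided by transcript length and by the number of mapped fragments in the library. Read depth is unknown, so no counting interval can be given, and FPKM totals per library lay between 321551 and 332950. Log2 differences below are on log2(FPKM + 1), which understates changes of low genes, and folds are ratios of mean FPKM. Adjusted p-values come from limma with Benjamini-Hochberg adjustment over the 10453 genes whose mean over all libraries was 1 FPKM or more, and a gene was called at an adjusted p under 0.05. All 10 genes passed that filter, and each had an NC mean above 1 FPKM. Where values of single genes or sums are compared by an exact two-sided permutation test of 3 against 3 libraries, 0.1 is the smallest p it can give. Wee1, the gene named in both treatments, stood at 15.5 ± 1.16 FPKM (SD, n = 3) under MK1775, 14.5 ± 1.22 FPKM in the libraries labelled Wee1 siRNA and 11.01 ± 0.498 FPKM in NC. It was thus not lower in the libraries labelled Wee1 siRNA (log2 difference 0.37, limma adjusted p = 0.00633), and that group is called by its label throughout.

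Most of the pathway was higher in both treated groups than in NC. Under MK1775, 6 of the 10 genes rose (H2-K1, B2m, Tap1, Tap2, Psmb8 and Psmb9), 1 fell (Psmb10), and 3 did not pass the test (H2-D1, Tapbp and Nlrc5). Of all genes tested in that comparison, 41% were called, 17.9% higher and 23.1% lower. In the libraries labelled Wee1 siRNA, the same 6 genes rose and the same gene fell, where 42.8% of all genes were called, 19.6% higher and 23.2% lower. The median log2 difference of the 10 genes was 0.33 for MK1775 and 0.36 for the Wee1 siRNA label, beside -0.04 and -0.01 for all genes tested. Because the 10 genes were chosen with earlier results known, these counts and medians describe them and are no test of the set. The values of the 7 called genes did not overlap between treated and NC libraries in either comparison, as was also so for 23.8% of all genes upward and 30.1% downward under MK1775, and for 24.1% and 28.1% in the libraries labelled Wee1 siRNA. These are bulk libraries, in which fewer cells with a transcript and less transcript per cell cannot be told apart.

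**Figure D1:**
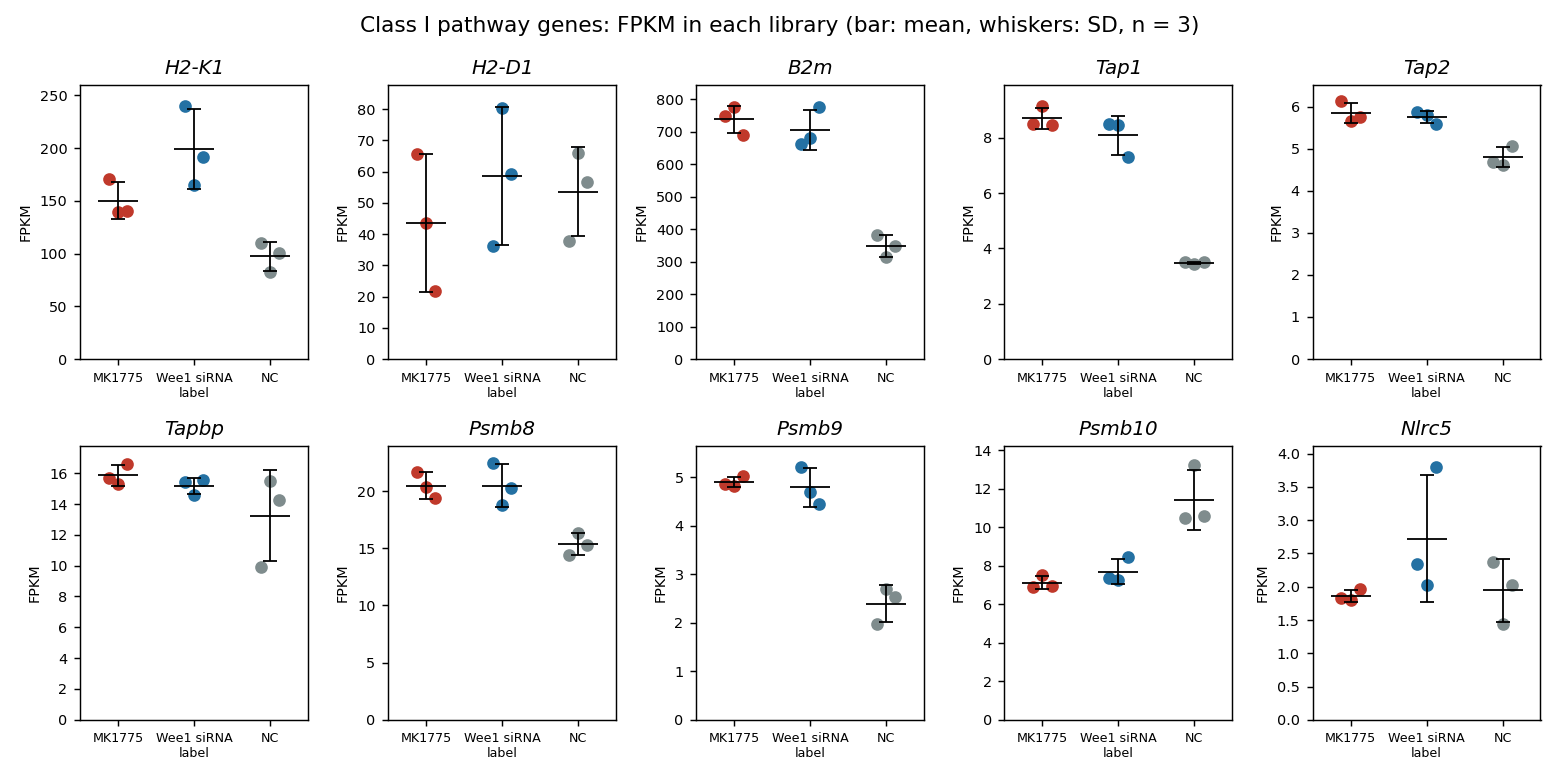
FPKM (vertical axes, linear, from 0) of the 10 class I pathway genes in the MK1775, Wee1 siRNA label and NC libraries. Each point is a library, long bars are means and whiskers are SD (n = 3). B2m, Tap1 and Psmb9 stand well above NC in all 6 treated libraries, Psmb10 stands below NC, and the named H2-D1 values overlap in all groups.

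B2m, the light chain shared by all classical class I molecules, was the most abundant of the 10 genes. Its single transcript, at chr2:121978167-121983564 on the plus strand, stood at 747, 774 and 690 FPKM in the MK1775 libraries, at 661, 680 and 776 FPKM in the libraries labelled Wee1 siRNA, and at 382, 313 and 349 FPKM in NC. Every treated library was above every NC library. The mean was 737 ± 42.7 FPKM under MK1775 against 348 ± 34.7 FPKM in NC (SD, n = 3 each), a 2.12-fold level and a log2 difference of 1.08 (SE 0.089, limma adjusted p = 5.87e-05). In the libraries labelled Wee1 siRNA the mean was 706 ± 61.9 FPKM, 2.03-fold that of NC, with a log2 difference of 1.02 (SE 0.089, limma adjusted p = 7.67e-05).

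H2-K1 encodes the K heavy chain, which forms the peptide groove, and lies at chr17:34214991-34219383 on the minus strand with 16 named transcripts. Summed over these, it stood at 170, 140 and 140 FPKM under MK1775, at 240, 165 and 192 FPKM in the libraries labelled Wee1 siRNA, and at 110, 82.5 and 100.4 FPKM in NC. No treated library reached down to the NC values, while MK1775 library 1 lay within the span of the libraries labelled Wee1 siRNA. The log2 difference from NC was 0.62 under MK1775 (SE 0.16, 1.54-fold, limma adjusted p = 0.0140) and 1.01 with the Wee1 siRNA label (SE 0.16, 2.04-fold, limma adjusted p = 0.00127). Without MK1775 library 1 the first of these dropped to 0.53 and was no longer called (limma adjusted p = 0.0501).

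The FPKM of H2-K1 was assigned to different transcripts in the 2 treated groups. That split is an estimate made on a b haplotype reference, and how reads divided between overlapping transcripts was not tested. The 2-exon transcript ENSMUST00000236877, of 705 bases at chr17:34218489-34219383 and classed as a retained-intron transcript in GENCODE, stood at 0.166, 0.837 and 1.20 FPKM under MK1775, at 150, 141 and 117 FPKM in the libraries labelled Wee1 siRNA, and at 57.0, 69.1 and 64.9 FPKM in NC. It was near 0 in each MK1775 library and abundant in each of the other 6. In a fit on the 21742 single transcripts whose mean was 1 FPKM or more, added after seeing the data, its log2 difference was -5.26 for MK1775 against NC (SE 0.22, limma adjusted p = 6.71e-06), where 18.2% of transcripts were called (10.4% higher and 7.8% lower), and -6.34 for MK1775 against the Wee1 siRNA label (SE 0.22, limma adjusted p = 0.000106). In that direct comparison only 5 of the 21742 transcripts (0.023%) were called, and this was 1 of the 3 called lower (0.0138%), with 0.0092% called higher. With the Wee1 siRNA label it was 1.08 above NC (limma adjusted p = 0.0126, with 19.8% of transcripts called), a call that was lost with a smaller pseudocount on the log2 scale (0.1, adjusted p = 0.195; 0.01, adjusted p = 0.288).

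Transcripts with all 8 exons, the form of the annotated full-length heavy chain messages ENSMUST00000172912 and ENSMUST00000025181, were assigned the most FPKM under MK1775. The 4 such transcripts assembled at H2-K1, named or not, summed to 140, 156 and 151 FPKM under MK1775, to 55.3, 56.8 and 41.7 FPKM in the libraries labelled Wee1 siRNA, and to 23.04, 32.5 and 24.4 FPKM in NC, with no overlap between any 2 groups. The MK1775 mean was 5.59-fold that of NC and 2.91-fold that of the Wee1 siRNA label, and the mean with the Wee1 siRNA label was 1.92-fold that of NC (exact permutation p = 0.1 each). As a share of all FPKM assembled at the gene they made up 63.0%, 62.0% and 54.9% under MK1775, 14.7%, 16.4% and 14.2% with the Wee1 siRNA label, and 12.5%, 15.8% and 11.9% in NC. The shares of the libraries labelled Wee1 siRNA and of NC overlapped. The 2 unnamed 4-exon transcripts there overlapped between MK1775 (46.0, 85.8 and 110.7 FPKM), the Wee1 siRNA label (133, 132 and 98.5 FPKM) and NC (73.1, 97.3 and 102 FPKM). All these levels and shares rest on the same estimated split, since the spans of ENSMUST00000172912 and ENSMUST00000025181 cover ENSMUST00000236877.

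**Figure D2:**
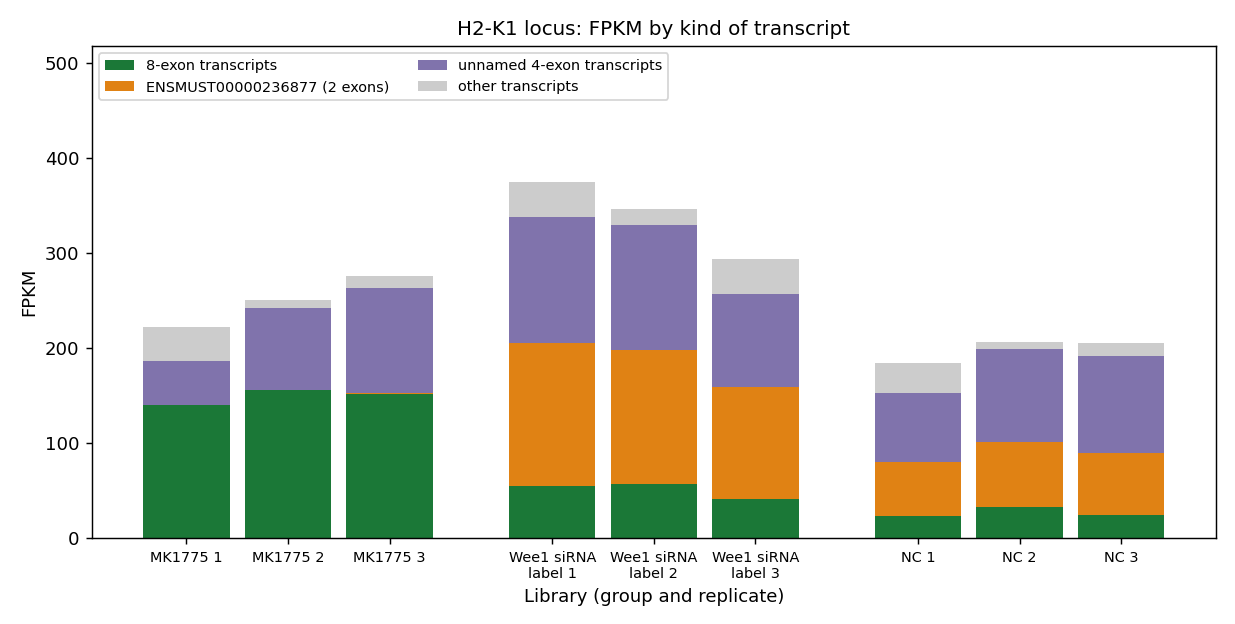
Stacked FPKM at the H2-K1 gene in each library, with MK1775 at the left, the Wee1 siRNA label in the middle and NC at the right, split into 8-exon transcripts, the 2-exon transcript ENSMUST00000236877, unnamed 4-exon transcripts and all others. The 2-exon transcript is not visible in the MK1775 bars, whose 8-exon part reaches 140 to 156 FPKM, while it makes up a large block in the other 6 bars.

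Since FPKM divides by transcript length, the fragments assigned to the gene were also compared without regard to the transcript, by summing FPKM times length over all transcripts of each assembled gene (12522 loci tested, added after seeing the data). On that scale H2-K1 was higher by 1.06 on the log2 scale under MK1775 (limma adjusted p = 3.29e-06) and by 0.83 with the Wee1 siRNA label (limma adjusted p = 1.90e-05). Whole-locus calls were common: 59.9% of loci were called for MK1775 against NC and 63.2% for the Wee1 siRNA label against NC. The order of the 2 treated groups also turned. The MK1775 minus Wee1 siRNA label difference was -0.39 for the named FPKM sums (95% interval -0.75 to -0.03). For the whole locus it was 0.23 (95% interval 0.02 to 0.43). Both unadjusted intervals left out 0, on opposite sides, and neither difference passed the test (limma adjusted p = 0.834 and 0.513). H2-K1 was therefore above NC on both scales, while the MK1775 to Wee1 siRNA label difference had no stable sign.

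H2-D1, the D heavy chain gene at chr17:35481706-35486787 on the plus strand, could not be read from its 3 named transcripts. These summed to 65.7, 43.4 and 21.7 FPKM under MK1775, to 36.3, 80.3 and 59.1 FPKM with the Wee1 siRNA label, and to 37.9, 65.8 and 56.8 FPKM in NC. All groups overlapped, and neither log2 difference from NC passed the test (-0.39, SE 0.43, limma adjusted p = 0.519 for MK1775, and 0.09, SE 0.43, limma adjusted p = 0.881 for the Wee1 siRNA label). The assembly placed H2-D1 under the same gene ID as 7 H2-Q genes, related class I genes in the same cluster. It left 32 of the 56 transcripts of that ID unnamed. The unnamed transcripts held 446, 417 and 498 FPKM under MK1775, 440, 399 and 438 FPKM with the Wee1 siRNA label, and 139, 109 and 138 FPKM in NC, more than the named H2-D1 transcripts in every library.

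Adding the 4 unnamed transcripts that end within the H2-D1 gene gave 351, 366 and 363 FPKM under MK1775, 378, 364 and 321 FPKM with the Wee1 siRNA label, and 145, 160 and 163 FPKM in NC. All 6 treated libraries were then above all NC libraries. The means were 360 ± 7.91 FPKM under MK1775 and 354 ± 29.6 FPKM with the Wee1 siRNA label, against 156 ± 9.58 FPKM in NC (SD, n = 3 each), 2.31-fold and 2.27-fold that of NC (exact permutation p = 0.1 each). The whole assembled locus, which also holds the H2-Q genes, was higher by 1.42 on the log2 scale under MK1775 (SE 0.048, limma adjusted p = 2.16e-09) and by 1.36 with the Wee1 siRNA label (limma adjusted p = 2.67e-09). How these fragments divide between H2-D1 and the H2-Q genes is uncertain.

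**Figure D3:**
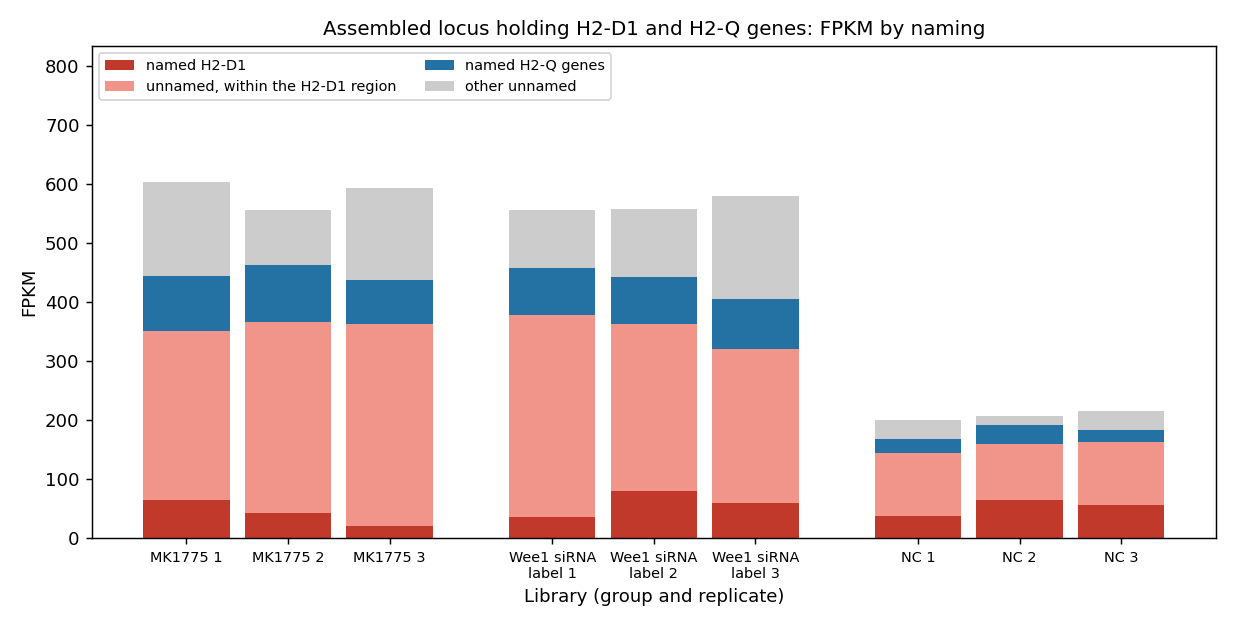
Stacked FPKM of the assembled locus that holds H2-D1 and the H2-Q genes in each library, split into named H2-D1 transcripts, unnamed transcripts within the H2-D1 gene, named H2-Q transcripts and other unnamed transcripts. The total reaches 557 to 605 FPKM in the 6 treated libraries and 200 to 215 FPKM in NC, while the named H2-D1 block at the base shows no order between the groups.

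Tap1, a subunit of the peptide transporter, lies at chr17:34406527-34416199 on the plus strand and had the steepest log2 difference of the 10 genes on the named FPKM sums under MK1775. With the Wee1 siRNA label it was level with B2m (1.02 each). On whole loci, the locus that pools H2-D1 with H2-Q genes was steeper in both comparisons (1.42 and 1.36, against 1.24 and 1.13 for Tap1). Those pooled values are not of H2-D1 alone. Tap1 stood at 8.49, 9.15 and 8.44 FPKM under MK1775, at 8.51, 8.46 and 7.28 FPKM with the Wee1 siRNA label, and at 3.49, 3.43 and 3.49 FPKM in NC. The lowest treated library was above 7 FPKM and the NC libraries were nearly equal. The log2 difference was 1.12 under MK1775 (SE 0.071, 2.51-fold, limma adjusted p = 1.63e-05) and 1.02 with the Wee1 siRNA label (SE 0.071, 2.33-fold, limma adjusted p = 2.46e-05).

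Tap2, the other transporter subunit, at chr17:34422501-34435295 on the plus strand, moved in the same direction by much less. It stood at 6.13, 5.67 and 5.75 FPKM under MK1775, at 5.86, 5.81 and 5.59 FPKM with the Wee1 siRNA label, and at 4.69, 4.62 and 5.07 FPKM in NC. The groups did not overlap with NC but lay close to it. The log2 difference was 0.24 under MK1775 (SE 0.061, 1.22-fold, limma adjusted p = 0.0144) and 0.22 with the Wee1 siRNA label (SE 0.061, 1.20-fold, limma adjusted p = 0.0197). Both calls were weak: that for MK1775 was lost without MK1775 library 1 (0.21, limma adjusted p = 0.0564), and that for the Wee1 siRNA label without NC library 2 or without library 1 or 2 of that label (0.20 to 0.22), and under 5 other settings.

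The balance of the transporter subunit messages differed between treated and NC libraries. The ratio of Tap1 to Tap2 FPKM was 1.39, 1.61 and 1.47 under MK1775, 1.45, 1.46 and 1.30 with the Wee1 siRNA label, and 0.743, 0.743 and 0.688 in NC. Tap1 exceeded Tap2 in all 6 treated libraries and was below it in the 3 NC libraries (exact permutation p = 0.1 for each treatment).

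Tapbp encodes tapasin, which bridges the transporter and the empty heavy chain, and lies at chr17:34134873-34148266 on the plus strand. It stood at 15.7, 15.3 and 16.6 FPKM under MK1775, at 15.4, 14.6 and 15.6 FPKM with the Wee1 siRNA label, and at 9.90, 15.5 and 14.3 FPKM in NC. NC library 1 was low, and the other NC libraries lay close to or within the treated range. The log2 differences, 0.27 under MK1775 and 0.21 with the Wee1 siRNA label (SE 0.14 each), did not pass the test (limma adjusted p = 0.169 and 0.271). Summed over the whole locus as above, an assembled gene ID shared with Zbtb22, the difference was 0.22 under MK1775 (limma adjusted p = 0.00783) and 0.15 with the Wee1 siRNA label (limma adjusted p = 0.0526). Neither treated group overlapped with NC on that scale, but the share of all loci for which this was so was not computed.

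The immunoproteasome subunits did not move as a set. Psmb9 (beta1i, at chr17:34400961-34406738 on the minus strand) stood at 4.87, 4.82 and 5.02 FPKM under MK1775, at 5.22, 4.70 and 4.45 FPKM with the Wee1 siRNA label, and at 1.97, 2.69 and 2.53 FPKM in NC. The treated and NC values were clearly apart. Its log2 difference was 0.80 under MK1775 (SE 0.096, 2.05-fold, limma adjusted p = 0.000372) and 0.77 with the Wee1 siRNA label (SE 0.096, 2.00-fold, limma adjusted p = 0.000422).

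Psmb8 (beta5i, at chr17:34416695-34420428 on the plus strand) stood at 21.7, 20.3 and 19.4 FPKM under MK1775, at 22.4, 18.8 and 20.3 FPKM with the Wee1 siRNA label, and at 14.4, 16.4 and 15.3 FPKM in NC. It rose by 0.39 on the log2 scale in both comparisons (SE 0.079, 1.33-fold, limma adjusted p = 0.00482 for MK1775 and 0.00475 for the Wee1 siRNA label). Taken by its most abundant transcript alone, the difference was 0.34 for MK1775 (limma adjusted p = 0.0598) and 0.01 for the Wee1 siRNA label (limma adjusted p = 0.974), and neither was called.

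Psmb10 (beta2i), which lies outside the MHC at chr8:106662367-106665239 on the minus strand, was the gene that fell. It stood at 6.89, 7.50 and 6.94 FPKM under MK1775, at 7.34, 7.28 and 8.44 FPKM with the Wee1 siRNA label, and at 10.5, 13.2 and 10.6 FPKM in NC. Every treated library was below every NC library. The log2 difference was -0.61 under MK1775 (SE 0.099, limma adjusted p = 0.00165) and -0.51 with the Wee1 siRNA label (SE 0.099, limma adjusted p = 0.00380), so NC stood 1.61-fold and 1.49-fold above the treated means.

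Set against the constitutive subunit that each replaces, the same split appeared. The ratio of Psmb9 to Psmb6 FPKM was 0.04998, 0.0513 and 0.0490 under MK1775, 0.0527, 0.0468 and 0.0443 with the Wee1 siRNA label, and 0.0201, 0.0266 and 0.0248 in NC. The ratio of Psmb8 to Psmb5 was 0.247, 0.242 and 0.198 under MK1775, 0.246, 0.204 and 0.227 with the Wee1 siRNA label, and 0.176, 0.178 and 0.171 in NC. The ratio of Psmb10 to Psmb7 went the other way, at 0.0415, 0.0460 and 0.0401 under MK1775, 0.0439, 0.0424 and 0.0482 with the Wee1 siRNA label, and 0.0724, 0.0857 and 0.0718 in NC. In each ratio the treated libraries did not overlap with NC, and all were below 1, so the constitutive messages were the more abundant in every library (exact permutation p = 0.1 each).

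Nlrc5, the transactivator of class I genes, at chr8:95160984-95253900 on the plus strand, was the lowest of the 10 genes and did not rise with them under MK1775. It stood at 1.83, 1.79 and 1.97 FPKM under MK1775, at 2.34, 2.03 and 3.81 FPKM with the Wee1 siRNA label, and at 2.37, 1.44 and 2.03 FPKM in NC. The groups overlapped with NC, and library 3 of the Wee1 siRNA label was high. The log2 difference was -0.03 under MK1775 (95% interval -0.46 to 0.40, limma adjusted p = 0.920) and 0.32 with the Wee1 siRNA label (95% interval -0.11 to 0.75, limma adjusted p = 0.201). Summed over the whole locus as above, the difference was 0.37 with the Wee1 siRNA label (limma adjusted p = 0.00932) and -0.03 under MK1775 (limma adjusted p = 0.828). On that scale, with the locus pooled with H2-Q genes standing for H2-D1, 9 of the 10 genes were called in each comparison, 8 higher and 1 lower. Of all loci, 31.8% were called higher and 28.1% lower for MK1775, and 35.2% and 28% for the Wee1 siRNA label.

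**Figure D4:**
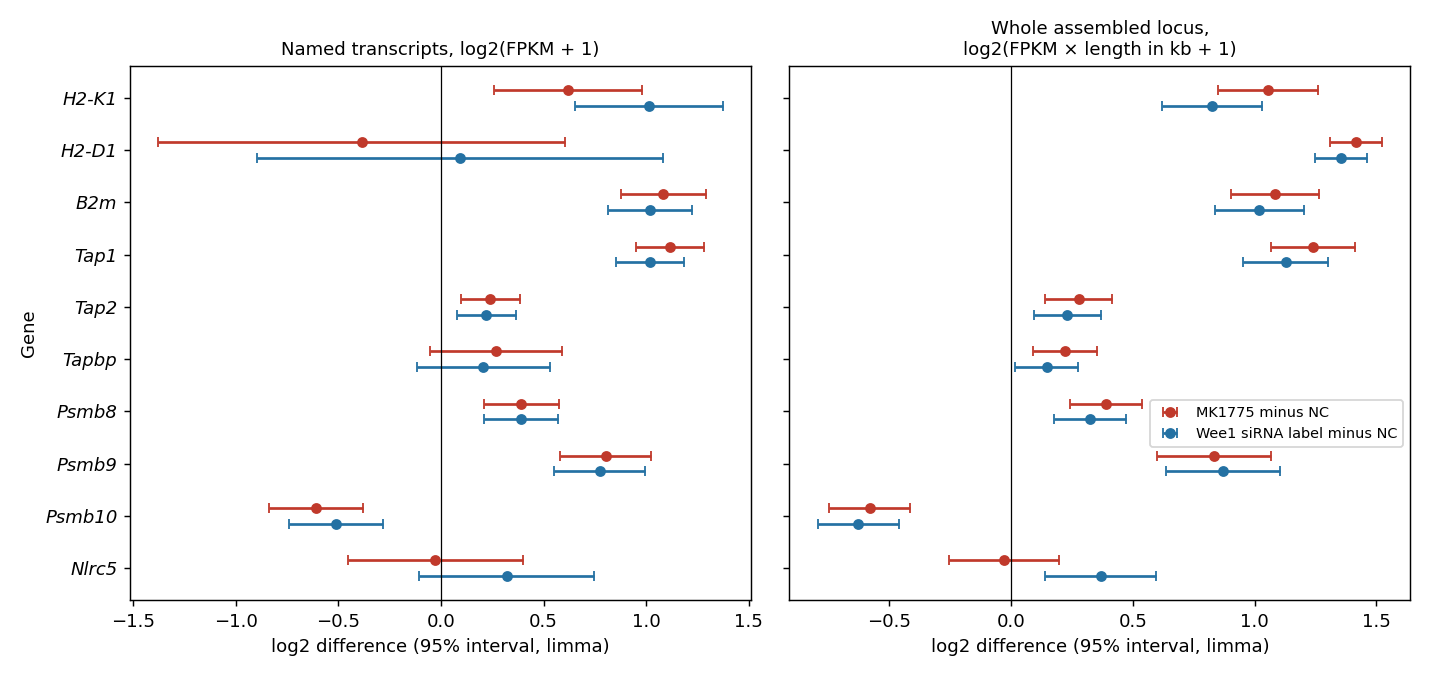
Log2 difference from NC with its 95% limma interval (horizontal axes) of the 10 genes, for MK1775 and for the Wee1 siRNA label. The left panel uses FPKM of named transcripts and the right panel all transcripts of the assembled locus. The H2-D1 interval of the left panel is wide, from -1.38 to 0.61 for MK1775. In the right panel its row shows the locus pooled with H2-Q genes, with narrow intervals near 1.4. Psmb10 is below 0 in both panels.

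Tested directly, no difference between MK1775 and the Wee1 siRNA label was called for any of the 10 genes by limma on the named sums, where 1 of all 10453 genes (0.00957%) was called. At an unadjusted p under 0.05 there was 1 of the 10, H2-K1, as for 5.89% of all genes. The 95% intervals of the MK1775 minus Wee1 siRNA label difference ran from -0.14 to 0.27 for B2m, from -0.07 to 0.26 for Tap1, from -0.12 to 0.16 for Tap2, from -0.18 to 0.18 for Psmb8, from -0.19 to 0.25 for Psmb9 and from -0.33 to 0.13 for Psmb10. Those of Nlrc5 (-0.78 to 0.08) and H2-D1 (-1.47 to 0.51) were wider. Nlrc5 was the gene whose MK1775 and Wee1 siRNA label values did not overlap, with MK1775 lower (limma adjusted p = 0.852), as was so for 6.78% of all genes, with another 5.08% higher under MK1775.

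Across the 9 libraries, the called genes varied together. As a description over libraries that fall into treated and NC groups, the Pearson r of Tap1 on log2(FPKM + 1) was 0.97 with Psmb9, 0.97 with B2m, 0.94 with Tap2, 0.91 with Psmb8, 0.82 with H2-K1 and -0.94 with Psmb10. It was 0.57 with Tapbp, 0.16 with Nlrc5 and -0.16 with the named H2-D1 transcripts. Values this high were common, since 596 of 10443 other genes (5.71%) had an r above 0.95 with Tap1 and 570 (5.46%) with B2m. The closest to Tap1 were Zswim4, Nr1d1, Hgs, Pramel20 and Map1lc3a (r of 0.995 to 0.996), and the closest to B2m were Thap2, Nusap1, Rbl1, Lrig2 and Prc1 (r of 0.995 to 0.998).

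Other class I and class I-like heavy chain genes were mostly too low to test: of 20 listed, 9 were tested, and 3 rose in both comparisons while none fell. Beside this and the following lists stand the shares of all genes, 17.9% called higher and 23.1% lower under MK1775, and 19.6% and 23.2% with the Wee1 siRNA label. All 3 were H2-Q genes of the pooled locus described above. H2-Q7 stood at 10.8 ± 0.944 FPKM under MK1775 and 13.2 ± 2.09 FPKM with the Wee1 siRNA label, against 1.80 ± 0.423 FPKM in NC (SD, n = 3 each), with log2 differences of 2.08 and 2.34 (limma adjusted p = 2.00e-05 and 1.10e-05). H2-Q6 stood at 29.5 ± 6.07 and 29.8 ± 5.57 FPKM in the same treated groups against 5.74 ± 0.329 FPKM in NC, and H2-Q4 at 40.5 ± 10.97 and 29.8 ± 1.52 FPKM against 12.6 ± 4.13 FPKM. H2-Q1, named after its values were seen, was uneven within groups. It stood at 0.0145, 0.0399 and 0 FPKM under MK1775, at 7.56, 0 and 0.0485 FPKM with the Wee1 siRNA label, and at 2.53, 2.62 and 0.0499 FPKM in NC. It was not called (log2 differences of -1.22 and -0.19, limma adjusted p = 0.287 and 0.873). Because these H2-Q genes were assembled under the same gene ID, their separate levels are uncertain. Mr1, which presents vitamin B metabolites, was next in the list and was not called (log2 differences of 0.14 and 0.25, limma adjusted p = 0.314 and 0.0876). The median log2 difference of the 9 genes was 0.16 for MK1775 and 0.25 for the Wee1 siRNA label.

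Among 12 peptide trimming and loading partners, 2 rose and 3 fell under MK1775, and 3 rose and 3 fell with the Wee1 siRNA label, with medians of -0.01 and 0.01. The calls in either direction, 5 and 6 of the 12 genes, were near the 41% and 42.8% of all genes called. Hspa5, the endoplasmic reticulum chaperone BiP, rose by 0.44 and 0.32 on the log2 scale (limma adjusted p = 0.000464 and 0.00235). Tapbpl, the tapasin-related peptide editor, rose by 0.60 and 0.61 (limma adjusted p = 0.00195 and 0.00172), standing at 2.44 ± 0.311 FPKM under MK1775 and 2.46 ± 0.252 FPKM with the Wee1 siRNA label against 1.27 ± 0.142 FPKM in NC. Among the cytosolic peptidases, Blmh fell by 0.33 and 0.42 and Npepps fell by 0.36 and 0.39 on the log2 scale, with limma adjusted p-values between 0.000402 and 0.00149. The remaining genes called were Thop1, another cytosolic peptidase, lower in both comparisons, and Lnpep, an aminopeptidase that trims class I peptides in endosomes, higher with the Wee1 siRNA label.

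Of 8 constitutive catalytic subunits and proteasome activators, 2 rose and 1 fell in each comparison, with medians of 0.11 for MK1775 and 0.09 for the Wee1 siRNA label. These 3 of 8 genes called were near the share of all genes called (41% and 42.8%). Pomp, the proteasome assembly chaperone, rose by 0.22 and 0.21, Psmb7 by 0.17 and 0.20, and the activator gene Psme4 fell by 0.47 and 0.42 on the log2 scale (limma adjusted p from 0.00443 to 0.0179). The log2 differences of Psmb5 were 0.03 and 0.05 and those of Psmb6 -0.04 and -0.01, none called. Psme3, the nuclear activator, was at 0.60 and 0.62 and was not called (limma adjusted p = 0.0778 and 0.0690).

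Of 15 interferon receptor and signalling genes, 12 were tested: 1 rose and 4 fell under MK1775, and 1 rose and 2 fell with the Wee1 siRNA label, with medians of -0.25 and -0.14. All genes also had more calls lower than higher, by the shares given above. Stat2, a transcription factor of the type I interferon response, rose by 0.51 and 0.65 (limma adjusted p = 0.00257 and 0.000697). Ifnar2, a chain of the type I interferon receptor, fell by 0.43 and 0.31 on the log2 scale (limma adjusted p = 0.00339 and 0.0152). Socs1, an inhibitor of the pathway, fell by 0.39 and 0.31 (limma adjusted p = 0.0148 and 0.0367). Il10rb and Jak2 were called lower under MK1775 (-0.51 and -0.45) and not with the Wee1 siRNA label (-0.24 and -0.27), and neither differed between the treated groups in the direct test (limma adjusted p = 0.852 and 0.870).

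Of 8 interferon ligand genes, none reached the filter and 5 were listed at 0 in all 9 libraries. Ifng, the gene of interferon gamma, singled out after its values were seen, was listed at 1.27, 1.51 and 1.45 FPKM under MK1775 and at 0.528, 1.68 and 1.66 FPKM with the Wee1 siRNA label, and at 0 in all 3 NC libraries. Of the 52306 named genes, 1028 (1.97%) were listed at 0 in all NC libraries and above 0 in all 6 treated libraries. Ifng was among the 106 of these (0.203% of named genes) that reached 0.5 FPKM or more in all 6. The reverse pattern, above 0 in all NC libraries and 0 in all 6 treated ones, was held by 14 genes (0.0268%). A 0 in this table can be a failed estimate, so no fold is given.

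Of 15 transcription factor genes known to act at class I promoters, 14 were tested. Under MK1775, 5 rose and 3 fell, and with the Wee1 siRNA label 7 rose and 3 fell, with a median of 0.25 in each comparison. Rfx5, a subunit of the complex through which Nlrc5 acts, stood at 8.91, 9.05 and 8.32 FPKM under MK1775, at 8.21, 8.28 and 8.79 FPKM with the Wee1 siRNA label, and at 2.20, 1.88 and 2.30 FPKM in NC. The treated values were all several times the NC values, with log2 differences of 1.64 and 1.59 (limma adjusted p = 2.62e-06 and 2.92e-06). Rela, the NF-kB subunit p65, rose by 1.00 and 0.95, and Nfyb, a subunit of the CCAAT-binding factor NF-Y, by 1.14 and 1.14 (limma adjusted p from 1.61e-05 to 7.69e-05). Irf8, an interferon regulatory factor of immune cells, fell by 0.61 and 0.74 on the log2 scale (limma adjusted p = 0.000142 and 5.74e-05). Rfxap, another subunit of the Rfx5 complex, and Nfkb1, an NF-kB subunit gene, were called lower in both comparisons. The interferon regulatory factors Irf7, below 1 FPKM in NC, and Irf2 were called higher in both. From its NC level, Irf7 could reach the required mean of 1 FPKM only with higher treated values. Its count among the genes that rose therefore does not test direction. Nfyc and Creb1 were called higher only with the Wee1 siRNA label. Irf1, the interferon regulatory factor of class I promoters, named after its values were seen, was at 0.06 and 0.18 and was not called (limma adjusted p = 0.648 and 0.142). None of the genes of these 5 lists was called between MK1775 and the Wee1 siRNA label by limma.

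**Figure D5:**
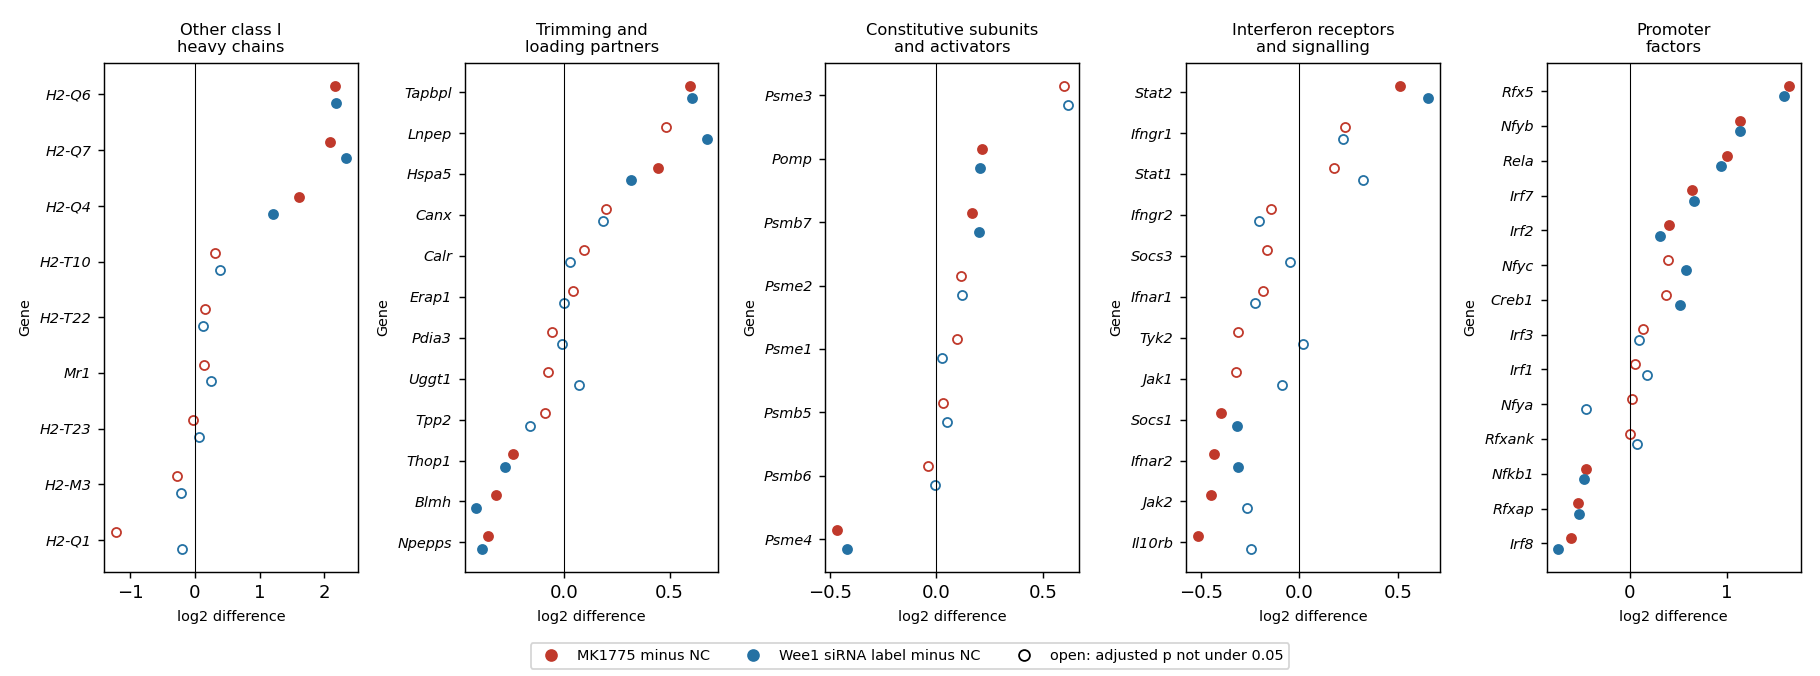
Log2 difference from NC (horizontal axes, log2(FPKM + 1) scale) of the tested genes of 5 lists, for MK1775 and for the Wee1 siRNA label, with filled points where the limma adjusted p was under 0.05. H2-Q4, H2-Q6, H2-Q7 and Rfx5 lie farthest to the right of 0. H2-Q1, not called, lies farthest to the left for MK1775 (-1.22), and Irf8 and the peptidases Blmh and Npepps also lie left of 0.

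Cell type markers were checked beside these results. The epithelial keratins Krt18 and Krt8 were abundant in every library, and the summed level of 8 epithelial markers was 762 to 780 FPKM under MK1775, 704 to 713 FPKM with the Wee1 siRNA label and 409 to 475 FPKM in NC. Krt18, Krt8 and Cdh1, the 3 of these that could be tested, all rose in both comparisons, while Epcam was low in all libraries (0.0335 to 0.573 FPKM). The 17 class II and immune cell markers summed to 14.6 to 17.3 FPKM under MK1775, 13.5 to 20.3 FPKM with the Wee1 siRNA label and 11.5 to 13.7 FPKM in NC. Of these 17, 6 were listed at 0 in all libraries, among them Cd3e, Cd8a and Adgre1, and 9 were below 0.1 FPKM in all. Of the 5 tested, 3 rose (H2-DMa, Cd74 and Itgax) and 1 fell (Cd68) under MK1775, and the same 3 rose and none fell with the Wee1 siRNA label. Itgax, the integrin CD11c of dendritic cells, was listed at 1.54, 2.18 and 2.499 FPKM under MK1775 and at 2.37, 2.89 and 0.548 FPKM with the Wee1 siRNA label, and at 0 in all NC libraries. From that NC level, a mean of 1 FPKM over all libraries required higher treated values. The filter thus fixed the direction of Itgax beforehand, and its count among the markers that rose does not test direction. Cd74, the class II invariant chain, stood at 2.49 ± 0.191 FPKM under MK1775 and 2.19 ± 0.235 FPKM with the Wee1 siRNA label against 1.43 ± 0.254 FPKM in NC (SD, n = 3 each). H2-DMa, a class II peptide exchange factor, stood at 5.11 ± 0.230 FPKM under MK1775 and 5.48 ± 1.74 FPKM with the Wee1 siRNA label against 1.61 ± 0.288 FPKM in NC, and Cd14 at 4.20 ± 0.756 and 4.19 ± 0.453 FPKM against 5.65 ± 0.621 FPKM (SD, n = 3 each). Cd68 stood at 2.23 ± 0.423 FPKM under MK1775, 2.63 ± 0.572 FPKM with the Wee1 siRNA label and 3.69 ± 0.239 FPKM in NC. The 9 fibroblast and endothelial markers, led by Pdgfra, Pdgfrb and Cdh5, summed to 2.49 to 3.04 FPKM under MK1775, 2.85 to 3.28 FPKM with the Wee1 siRNA label and 2.57 to 3.95 FPKM in NC. The part of these markers in the differences of the class I genes was not tested.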

How the data were processed

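RNA was taken from 4T1 cells for 9 libraries, and per the labels' protocols libraries were made from total RNA with an NEBNext Ultra kit. Per the submitters' processing notes, FastQC, Trim Galore, HISAT2 and StringTie were used with the genome build GRCm39; the sources used here do not give versions, strandedness or the annotation release. The authors deposited FPKM values per transcript and library for 158719 transcripts, 17991 of them without a gene name. Low values of FPKM times length were not whole multiples of a common step. At the best of the steps tried, 26.9% to 30.4% lay within 0.1 of a whole multiple. The chance share is 20% for a single fixed step and higher for the best of many. Reads could therefore not be recovered, and depth is unknown.

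FPKM was summed over transcripts with the same gene name, leaving out 19 names on more than 1 chromosome. Genes whose mean was 1 FPKM or more were tested on log2(FPKM + 1) in a single fit of all 9 libraries with 3 group means and no covariate (limma 3.58.1 with trend, R 4.3.3, version 1.17.8 of data.table), two-sided, with Benjamini-Hochberg adjustment over all 10453 genes and a threshold of 0.05. Single values were also compared by exact permutation tests. The fit was tested on simulated data. Fits on single transcripts and on whole assembled loci (FPKM times length) were added after seeing the data. Further settings changed the pseudocount, filter, scaling, block, samples, trend and transcript choice. Transcript classes were looked up by ID in GENCODE vM21 and promoters by symbol in RefSeq (8 of the 10 genes matched, GRCm38.p6), a different build from the table's. Sequences were handled with python 3.11.15 and figures drawn with matplotlib 3.10.9.

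The 10 genes and the lists were chosen with earlier results of these data known. Named beside them were Wee1, up to 4 genes of each list with the smallest adjusted p against NC, the 3 most abundant markers of other cell types, and the 5 genes most correlated with Tap1 and with B2m. Further genes of the lists were named because they were called or after their values were seen.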

Additional observations from a re-analysis of the deposited data

How the results depend on the processing

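The number of class I pathway genes called was 5 to 9 in both comparisons with NC over all settings tried. Of all genes, 41% and 42.8% were called in the main fit. Whole loci gave 9, where 59.9% and 63.2% of all loci were called. The shares under the other settings were not computed, so those counts show only how far the calls moved. Leaving out 1 library at a time gave 5 to 7 for MK1775, 6 to 7 for the Wee1 siRNA label and 0 between them. With the most abundant transcript of each gene in place of the sum, 1 gene, H2-K1, was called between MK1775 and the Wee1 siRNA label, and its MK1775 minus NC difference turned to -5.26, since that transcript is the 2-exon form. The other signs that turned belonged to differences that were not called on the named sums, and the causes were not tested. With the most abundant transcript these were Nlrc5 for the Wee1 siRNA label (-0.073) and, for MK1775 minus the Wee1 siRNA label, Tapbp (-0.038), Psmb9 (-0.022) and Nlrc5 (0.014). Adding unnamed transcripts moved Psmb10 in that last comparison to 0.033. Whole loci gave 1.42 for H2-D1 pooled with H2-Q genes in MK1775 minus NC, called there at limma adjusted p = 2.16e-09. For MK1775 minus the Wee1 siRNA label they gave 0.23 for H2-K1, 0.062 for that pooled locus, -0.037 for Psmb9 and 0.046 for Psmb10. Leaving out 1 library gave ranges that cross 0 for Nlrc5 in MK1775 minus NC (-0.16 to 0.075), for H2-D1 in MK1775 minus NC (-0.74 to 0.034) and in the Wee1 siRNA label minus NC (-0.17 to 0.40), and for MK1775 minus the Wee1 siRNA label in Tap2 (-0.0097 to 0.039), Psmb8 (-0.057 to 0.066) and Psmb9 (-0.013 to 0.082). B2m, Tap1, Psmb9 and Psmb10 kept their direction and call against NC under each setting run for them, B2m between 1.01 and 1.15 and Tap1 between 1.08 and 1.32 for MK1775. Whole loci also gained calls against NC for Tapbp under MK1775 and for the pooled H2-D1 and H2-Q locus and Nlrc5 with the Wee1 siRNA label. A minimum of 5 FPKM left 6 genes called in each comparison, since Psmb9 and Nlrc5 then left the test.

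With the replicate number as a block, 7 genes were called for MK1775, 6 for the Wee1 siRNA label (Tap2 at 0.22, adjusted p = 0.0509, was lost) and 0 between them. Deviations of same-numbered libraries from their group means correlated between -0.12 and 0.043, so no shared replicate effect was seen. This cannot show whether same-numbered libraries shared a culture or batch. The main limits are the unknown depth, groups of 3 libraries, the split of FPKM between transcripts at H2-K1 and H2-D1, and the C57BL/6J reference.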
